A study of Homo sapiens with 39 samples.

Results

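The colony-stimulating factors CSF1, CSF2 and CSF3 and the cytokine IL24 were followed in U87-MG glioblastoma cells after a single high dose of gamma rays. The 4 genes were taken by name from the array's annotation, as a set chosen by their differences from 0Gy on these arrays, which were known beforehand, and the probe with the highest mean signal over all samples stood for a gene. Of the 4, 3 had a named probe among the 20041 genes of the annotation, with 8 probes in all, and 2 of them, CSF3 and IL24, had a signal above background and were tested among 11296 genes. CSF1 had 3 probes that did not pass the background rule. The annotation table used here names no probe for CSF2, and CSF2 was not analysed here. The study's own list of genes changed on these arrays includes CSF2, so the array may hold a probe for it.

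Colony-stimulating factors are secreted proteins that drive the formation and survival of white blood cells. CSF1 (M-CSF) sustains monocytes and macrophages, CSF2 (GM-CSF) acts on granulocytes and macrophages, and CSF3 (G-CSF) drives the production of neutrophils in the bone marrow. IL24, first described as a gene of differentiating melanoma cells, belongs to the IL-10 family and signals through the receptor chains IL20RA, IL20RB and IL22RA1 to STAT3. CSF3 and IL24 mRNAs are low in most resting cells. Transcription factors of the NF-kB, C/EBP and AP-1 families are known regulators of such cytokine genes, and proteins that bind their mRNAs limit how long the transcripts last.

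U87-MG is an established human glioblastoma line. Cells received 0Gy (sham irradiation in parallel), 8Gy or 16Gy from a cesium source at 0.48 Gy per minute, and RNA was collected after 1, 4, 6 or 35 days. The 9 groups of days 1, 4 and 6 held 3 samples each, in which replicate 1 was the average of 2 technical runs, and the 3 groups of day 35 held 4 samples each. The day 35 samples are described both as 4 experimental replicates and as 3 independent experiments harvested on neighbouring days, and which of them are independent is not settled. By day 35 the irradiated cultures came from cells that had survived, and cultures had been replated every few days. Values are the deposited log2 signals of Illumina bead arrays, and the sets of 27 short-term and 12 day 35 samples were normalized apart, so that levels were compared within a set. Background in a sample was the level exceeded by 5% of the 455 probes of olfactory receptor genes, and it lay between 6.78 and 6.90 on the log2 scale.

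The defining leukocyte markers PTPRC and TYROBP were below background in all 39 samples, as were the glial markers GFAP and S100B. VIM, CD44, SPARC, CHI3L1, NES and OLIG2 were above it in all 39, and SPARC was called lower at 16Gy on day 6 (log2 fold change -0.68, SE 0.17). Of the 9 myeloid and lymphoid markers, CD68, CD14, AIF1 and MS4A1 were tested and were above background in 39, 38, 33 and 13 samples. CD68, a lysosomal protein that is also made outside leukocytes, was the 1 of them called higher at 16Gy on day 6 (log2 fold change 0.59, SE 0.13), and CD14 was 0.44 higher, under the fold threshold (adjusted p = 0.00888 in limma). The log2 of the summed signal of these 9 markers was 12.28 to 12.47 at 16Gy and 11.72 to 12.02 at 0Gy on day 6. On day 4 it was 12.41 to 12.56 at 16Gy and 12.20 to 12.31 at 0Gy. This sum mostly follows CD68, whose median log2 signal was 11.86, against 7.21 for CD14, the next brightest. The part of these markers in the results below was not tested.

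CSF3 lies on chromosome 17 (40015440 to 40017813, GRCh38.p14), and its brightest probe, ILMN_1697069, was above background in all 39 samples. On day 1 its log2 signal was 7.94, 8.01 and 8.13 at 0Gy, 8.41, 8.31 and 8.60 at 8Gy, and 8.18, 7.98 and 8.42 at 16Gy. The 8Gy samples all lay above the 0Gy samples, while the 16Gy samples overlapped both. On day 4 the log2 signal was 9.73, 9.07 and 7.94 at 0Gy, 11.38, 11.84 and 10.35 at 8Gy, and 11.22, 11.93 and 10.77 at 16Gy. Each irradiated sample was above every 0Gy sample, and replicate 3 was the lowest of its group at all 3 doses. On day 6 it was 9.58, 9.11 and 8.39 at 0Gy, 11.66, 12.43 and 11.20 at 8Gy, and 11.52, 12.62 and 11.80 at 16Gy. Again no irradiated sample reached down to the 0Gy samples. How many of all genes separated in this way was not counted.

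IL24 lies on chromosome 1 (206897443 to 206904139, GRCh38.p14), and its brightest probe, ILMN_1774685, was above background in 34 of 39 samples. On day 1 its log2 signal was 6.83, 7.13 and 7.27 at 0Gy, 6.89, 7.07 and 7.24 at 8Gy, and 6.99, 7.10 and 7.25 at 16Gy. The 3 groups overlapped and stood close to background. On day 4 the log2 signal was 7.12, 7.35 and 6.70 at 0Gy, 8.57, 8.72 and 7.84 at 8Gy, and 8.93, 8.86 and 8.33 at 16Gy. All irradiated samples were above the 0Gy samples, of which 2 of 3 exceeded background. On day 6 it was 7.40, 7.42 and 6.65 at 0Gy, 9.07, 9.15 and 8.63 at 8Gy, and 9.60, 9.42 and 9.66 at 16Gy. Here the 3 doses formed 3 ranges that did not overlap, with 16Gy on top. How many of all genes did so was not counted.

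The sequence around the start of the IL24 gene is shown because IL24 and CSF3 moved together on days 4 and 6 and IL24 is the 1 of them with an entry in the RefSeq promoter table (GRCh38.p14). It covers chr1:206897193-206897492 on the plus strand, 250 bases before and 50 bases from the annotated start. Capitals mark the letters TATATA, which begin 29 bases before the start and were searched for after the sequence had been seen, and the first transcribed base.
IL24: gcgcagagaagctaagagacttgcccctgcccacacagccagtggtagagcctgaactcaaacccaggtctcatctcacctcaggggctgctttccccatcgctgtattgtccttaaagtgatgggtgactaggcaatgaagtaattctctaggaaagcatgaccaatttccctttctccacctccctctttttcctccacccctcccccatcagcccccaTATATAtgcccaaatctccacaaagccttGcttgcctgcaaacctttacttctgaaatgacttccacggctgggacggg
The letters TATATA were present on either strand in 3.99% of 35116 promoters of this length. The AP-1 motif TGANTCA and the NF-kB motif GGGNNNNNCC had 0 matches on both strands of the IL24 window, against 7.71% and 58.7% of all promoters with a match. TATAAA, the usual TATA box, also had 0 matches (11.5% of all promoters). A match is only a run of letters, and these windows leave out most regulatory sequence.

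**Figure D1:**
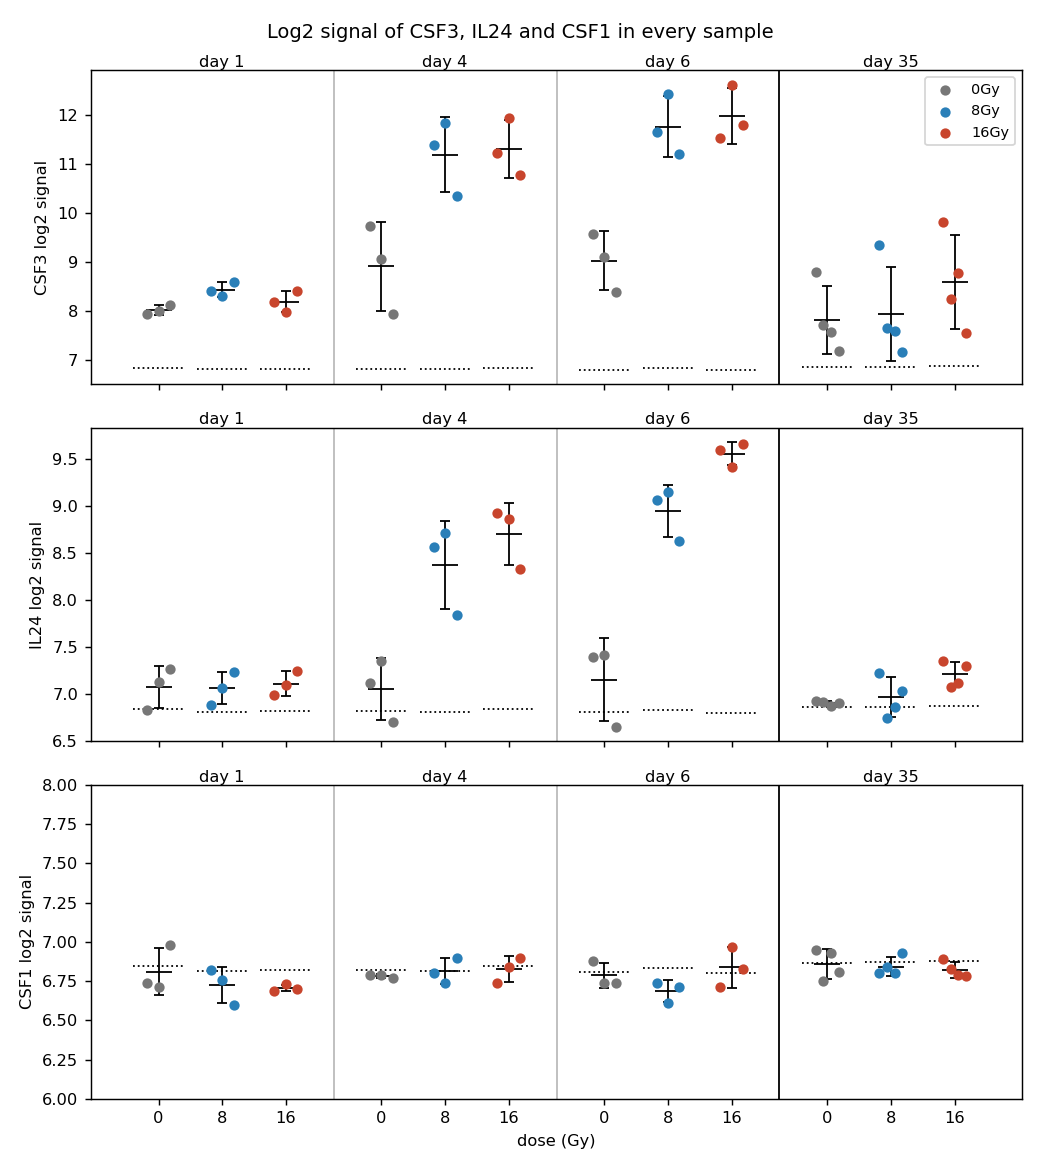
Log2 signal of CSF3, IL24 and CSF1 (vertical axes) in each sample by dose (Gy) and day; points are samples, bars are the mean and SD of a group, dotted lines the group's background, and the black vertical line separates day 35, which was normalized apart. CSF3 and IL24 at 8Gy and 16Gy are above 0Gy on days 4 and 6, and CSF1 stays at background throughout.

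These values describe how the cytokines in irradiated cells differed from those in sham-irradiated cells of the same day. Since the set was chosen by differences of this kind, the differences from 0Gy are given as a description with their standard errors and no p-value. A gene counted as called when its Benjamini-Hochberg adjusted p over all genes in limma was under 0.10 and its fold change was over 1.5. On day 4 at 8Gy, CSF3 averaged 11.19 ± 0.76 and at 0Gy 8.91 ± 0.91 (SD, n = 3 each), a log2 fold change of 2.28 (SE 0.32) or 4.84-fold. On day 4 at 16Gy it averaged 11.31 ± 0.58 (SD, n = 3), a log2 fold change of 2.40 or 5.26-fold over the same 0Gy samples. The day 6 differences were 2.74 at 8Gy (6.67-fold) and 2.95 at 16Gy (7.73-fold), from means of 11.77 ± 0.62 at 8Gy, 11.98 ± 0.58 at 16Gy and 9.03 ± 0.60 at 0Gy. CSF3 was higher in 3 of 3 replicate pairs in each of these 4 comparisons.

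IL24 on day 4 averaged 8.38 ± 0.47 at 8Gy and 7.06 ± 0.33 at 0Gy (SD, n = 3 each), a log2 fold change of 1.32 (SE 0.19) or 2.49-fold. At 16Gy on day 4 the mean was 8.70 ± 0.33, which was 1.64 above the 0Gy mean (3.13-fold). On day 6 IL24 averaged 8.95 ± 0.28 at 8Gy and 7.16 ± 0.44 at 0Gy, a log2 fold change of 1.79 (3.47-fold). The mean of 9.56 ± 0.12 at 16Gy was 2.41 above the same 0Gy samples (5.30-fold). IL24 at 0Gy stood close to background, which averaged 6.82 on day 4 and 6.81 on day 6 in those samples, where a measured fold change can understate the real one, whereas CSF3 was above background in all samples. IL24 was higher in 3 of 3 pairs in each comparison of days 4 and 6.

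Both tested members were called higher at 8Gy and at 16Gy on days 4 and 6. The share of all tested genes called higher was 1.49% at 8Gy and 3.1% at 16Gy on day 4, and 2.04% at 8Gy and 4.09% at 16Gy on day 6. On day 1, 0 of 2 members were called, against 0.0885% of all genes called higher at 8Gy and 0.602% at 16Gy. The day 1 log2 fold changes were 0.42 (95% interval -0.23 to 1.06) at 8Gy and 0.17 (-0.48 to 0.81) at 16Gy for CSF3. For IL24 they were -0.011 (-0.40 to 0.38) and 0.033 (-0.36 to 0.43) at the same doses. In these bulk samples, a change in the share of cells that make a transcript and a change in its amount per cell cannot be told apart.

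**Figure D2:**
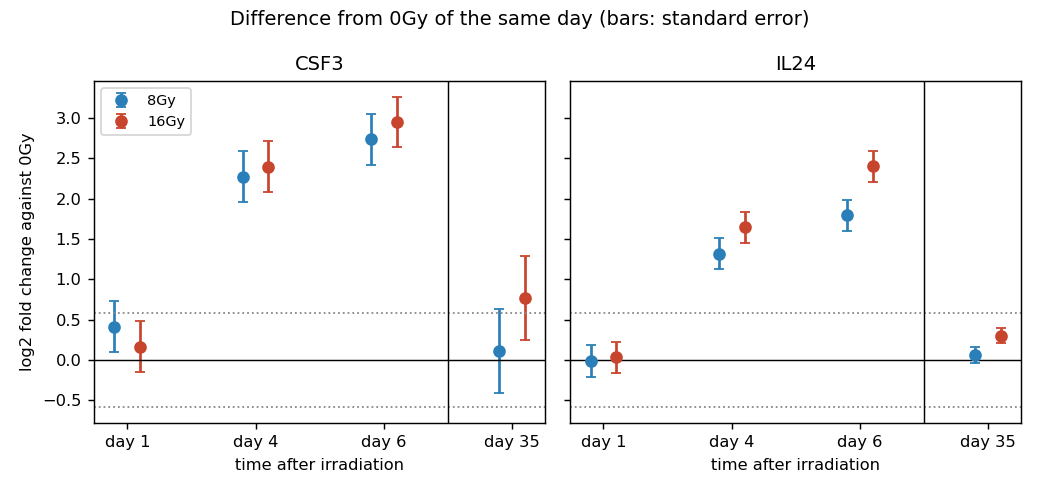
Log2 fold change of CSF3 and IL24 against 0Gy of the same day (vertical axis, log2) by time after irradiation; points are limma estimates for 8Gy and 16Gy, bars their standard error, and dotted lines the 1.5-fold threshold. Values are at most 0.42 on day 1, between 1.32 and 2.95 on days 4 and 6, and at most 0.77 on day 35.

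The difference between days was also computed. Relative to day 1, the day 4 difference from 0Gy was larger by 1.86 (SE 0.45) at 8Gy and 2.23 at 16Gy for CSF3. For IL24 it was larger by 1.33 (SE 0.27) at 8Gy and 1.61 at 16Gy. These changes contain the day 4 differences by which the set was chosen, so they too are a description. All 4 passed the call rule, with 0.292% of all genes called higher in this contrast at 8Gy and 2.28% at 16Gy. At 8Gy, however, neither was called without a term for the replicate number. In that fit 5 of 11296 genes were called in either direction, and the estimates stayed at 1.86 for CSF3 and 1.33 for IL24. From day 4 to day 6, 0 of 2 members were called at either dose, against 0% of all genes called higher at 8Gy and 0.0443% at 16Gy. The IL24 difference at 16Gy grew by 0.76 over that interval (95% interval 0.20 to 1.32, adjusted p = 0.738 in limma), and that of CSF3 by 0.56 (-0.36 to 1.47, adjusted p = 0.863).

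Unirradiated cultures changed over the same days. CSF3 at 0Gy averaged 8.91 ± 0.91 on day 4 and 8.03 ± 0.09 on day 1 (SD, n = 3 each), a log2 fold change of 0.89 (SE 0.32, adjusted p = 0.058 in limma), and was called, among 3.66% of all genes called higher. The ranges overlapped, since replicate 3 on day 4 had 7.94, and 2 of 3 pairs were higher. The call was lost without a term for the replicate number (adjusted p = 0.113) and without any 1 of 3 samples, 0Gy replicate 1 or 2 of day 1 or replicate 1 of day 4 (adjusted p = 0.192, 0.219 and 0.418). IL24 at 0Gy differed by -0.019 (SE 0.19) between days 4 and 1 and was not called. Between days 6 and 4, 0 of 2 members were called higher at 0Gy, as were 0% of all genes, and the log2 differences were 0.11 for CSF3 and 0.10 for IL24.

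Comparing the doses directly, 16Gy against 8Gy gave 0 of 2 members called on each of the 4 days, against 0%, 0.0177%, 0.301% and 0% of all genes called higher on days 1, 4, 6 and 35. IL24 on day 6 was 0.61 higher at 16Gy (95% interval 0.22 to 1.00, adjusted p = 0.197 in limma), with no overlap between the groups and 3 of 3 pairs higher. When day 6 was fitted alone the same difference was called (adjusted p = 0.0448 in limma), among 97 of 11296 genes called in either direction in that fit. The share of all genes with no overlap between these groups was not counted. CSF3 on day 6 differed by 0.21 between 16Gy and 8Gy (95% interval -0.43 to 0.86, adjusted p = 0.825), so a difference of up to 0.86 in favour of 16Gy lies within its error. On day 4 the difference was 0.12 for CSF3 (-0.52 to 0.76) and 0.33 for IL24 (-0.067 to 0.72), with adjusted p = 0.998 for both.

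In order of group mean within the short-term set, CSF3 was lowest at 0Gy on day 1, followed by 16Gy and 8Gy on day 1, 0Gy on days 4 and 6, 8Gy and 16Gy on day 4, and 8Gy and 16Gy on day 6. Neighbours in that order differed by less than the larger SD of the pair except at 2 steps. These were the step between 8Gy and 16Gy on day 1 (means 8.44 and 8.19) and the step between 8Gy on day 4 and 0Gy on day 6 (means 11.19 and 9.03). IL24 showed a group of 5 low means between 7.06 and 7.16, made of all doses of day 1 and the 0Gy cultures of days 4 and 6. The 4 irradiated groups of days 4 and 6 stood apart from it, with means between 8.38 and 9.56.

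Neither gene was called on day 35, when the irradiated cultures had regrown from surviving cells. CSF3 had log2 signals of 8.80, 7.72, 7.58 and 7.19 at 0Gy, 9.35, 7.65, 7.60 and 7.16 at 8Gy, and 9.81, 8.25, 8.77 and 7.55 at 16Gy. Replicate 1 was the highest and replicate 4 the lowest at every dose, and the groups overlapped. IL24 had 6.93, 6.92, 6.88 and 6.91 at 0Gy, 7.23, 6.75, 6.87 and 7.04 at 8Gy, and 7.35, 7.08, 7.12 and 7.30 at 16Gy. The 16Gy samples of IL24 all lay above the 0Gy samples, by a small margin close to background. The share of all genes that did so was not counted. The other IL24 probe, ILMN_1725814, had 6.84, 6.72, 6.60 and 6.68 at 16Gy and 6.75, 6.66, 6.59 and 6.58 at 0Gy. These groups overlapped, and all their samples were under background.

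At 16Gy on day 35 the log2 fold change against 0Gy was 0.77 (95% interval -0.35 to 1.89) for CSF3 and 0.30 (0.10 to 0.51) for IL24, each higher in 4 of 4 pairs. At 8Gy it was 0.12 (-1.01 to 1.24) for CSF3 and 0.062 (-0.14 to 0.27) for IL24, each higher in 2 of 4 pairs. At either dose 0 of 2 members were called, against 0% of all genes called higher at 8Gy and 0.00885% at 16Gy. An analysis of variance over the 12 groups with Bonferroni-Holm adjustment did call CSF3 at 16Gy. It called 21 of 20041 genes in that comparison, 20 of them higher. Its p-value covers all 12 groups together, so only the fold threshold concerned day 35. Leaving out 1 sample moved the CSF3 value at 16Gy between 0.37 (16Gy replicate 1 left out) and 1.12 (16Gy replicate 4 left out). Once replicate number entered the fit, the 16Gy intervals narrowed to 0.44 to 1.10 for CSF3 and 0.15 to 0.46 for IL24, and 0 of 2 members were called, against 0.0797% of all genes.

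**Figure D3:**
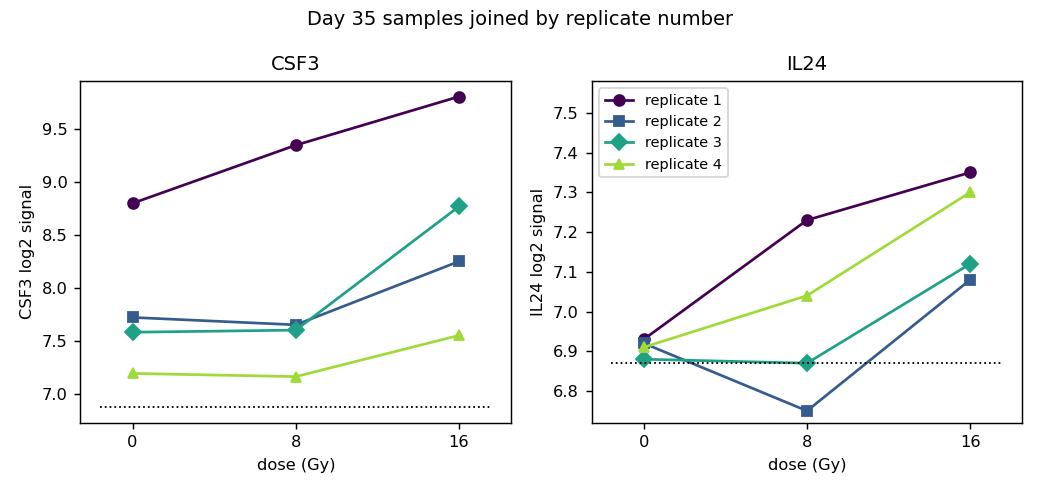
Log2 signal of CSF3 and IL24 (vertical axes) on day 35 at 0, 8 and 16Gy, with lines joining samples of the same replicate number; the dotted line is background. In all 4 replicates the 16Gy sample is above its 0Gy sample, by 0.36 to 1.18 for CSF3 and by 0.15 to 0.42 for IL24.

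The other probes of the same genes differed in how much they moved. The second CSF3 probe, ILMN_2322768, matched to the same transcript as the brightest, had log2 fold changes of 2.57 on day 4 and 2.99 on day 6 at 16Gy. The third, ILMN_1706852, is assigned to the transcript variant NM_172220 and was above background in 10 of 39 samples. On day 6 it averaged 7.04 at 16Gy and 6.59 at 0Gy, where no sample was above background, so that the fold was at least 1.17. The second IL24 probe, ILMN_1725814, averaged 7.97 at 16Gy and 6.73 at 0Gy on day 6, at least 2.24-fold, since the 0Gy mean was under background and 1 of 3 samples exceeded it. On day 4 it averaged 7.27 at 16Gy and 6.70 at 0Gy, again under background, at least 1.37-fold.

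CSF1 lies on chromosome 1 (109910506 to 109930992, GRCh38.p14). Its brightest probe, ILMN_1733402, ranged from 6.60 to 6.98 over all samples and was above background in 13 of 39. Its other probes were above background in 3 and 1 of 39 samples. On day 6 the brightest probe had 6.71, 6.97 and 6.83 at 16Gy, against 6.88, 6.74 and 6.74 at 0Gy, and the groups overlapped. Probe ILMN_1805930 had 6.68, 6.79 and 6.86 at 16Gy, against 6.37, 6.64 and 6.61 at 0Gy, without overlap. Of these, 1 sample at 16Gy and 0 at 0Gy exceeded background. The share of all probes without overlap between these groups was not counted. With these probes a level of CSF1 mRNA was not measurable, which does not show that it was absent.

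**Figure D4:**
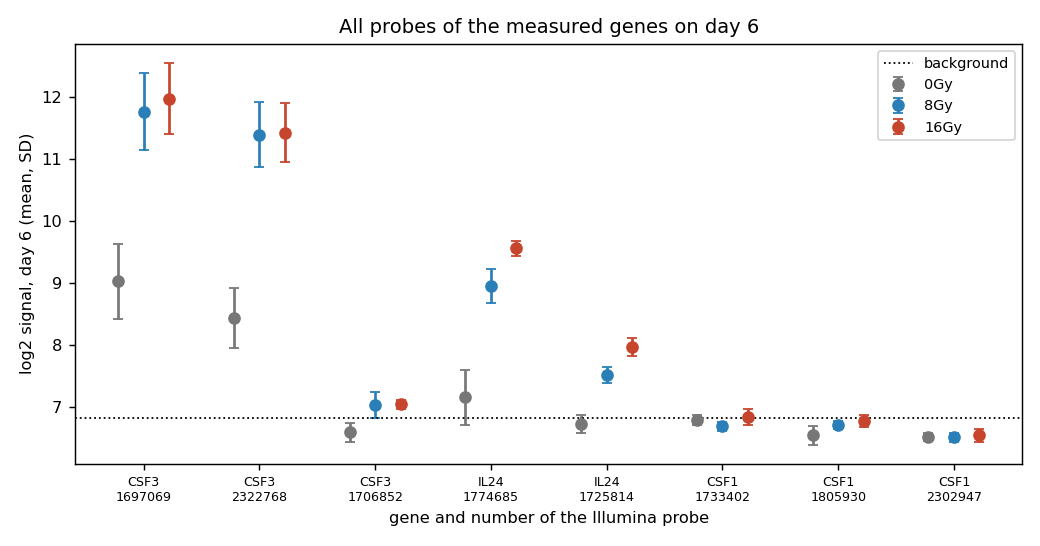
Mean log2 signal on day 6 (vertical axis, bars SD, n = 3) of all 8 probes of CSF3, IL24 and CSF1, named by Illumina probe number, at 0, 8 and 16Gy; the dotted line is background. A pair of CSF3 probes and both IL24 probes are higher at 8Gy and 16Gy, the third CSF3 probe is under background at 0Gy, and the CSF1 probes stay at background.

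Of 10 chains on the array from the receptors of these cytokines and of their relatives, 5 were tested, and CSF3R, the receptor of G-CSF, was above background in 1 of 39 samples. CSF1R, the receptor of M-CSF, was the 1 called: it fell to 8.14 at 16Gy on day 6, against 8.99 at 0Gy (log2 fold change -0.85, SE 0.17, adjusted p = 0.000737 in limma). A share of 3.77% of all genes was called lower in that comparison. The GM-CSF receptor chain CSF2RA averaged 10.01 at 16Gy and 10.01 at 0Gy on day 6, but its partner CSF2RB was above background in 3 of 39 samples. Among the chains through which IL24 signals, IL20RB averaged 7.64 at 16Gy and 7.71 at 0Gy on day 6 and was not called, whereas IL20RA and IL22RA1 were above background in 1 and 0 of 39 samples. IL10RB, shared by other IL-10 family receptors, was 0.45 lower at 16Gy on day 6, under the fold threshold (adjusted p = 0.0244), and IL5RA was not called (-0.081).

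The other IL-10 family cytokines and growth factors of blood cells gave 5 tested genes of 12 on the array. IL11 is a cytokine of the IL-6 group that promotes platelet formation. It was called higher at both doses on days 4 and 6, as were 1.49% to 4.09% of all genes. On day 6 it averaged 9.23 at 16Gy and 7.48 at 0Gy (log2 fold change 1.75, SE 0.20, adjusted p = 9.56e-08). IL10, an anti-inflammatory cytokine, averaged 9.77 at 16Gy and 9.78 at 0Gy on that day. KITLG and FLT3LG, growth factors of blood progenitors, and IL22 were not called on any day against 0Gy.

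The neighbours of the members on their chromosomes were also read. IL24 lies in a cluster of IL-10 family genes, and IL19 and IL20, next to it, were above background in 0 and 3 of 39 samples, while IL10 was not called. The annotated FCMR gene, whose coordinates overlap the 3' end of IL24, had a log2 fold change of -0.17 at 16Gy on day 6 and was not called. Beside CSF3, PSMD3 and MED24 had log2 fold changes of 0.39 (adjusted p = 0.122) and -0.0022 (adjusted p = 0.995) at 16Gy on day 6. None of the tested neighbours of the 3 genes was called at 16Gy on day 4 or day 6 or at 8Gy on day 6.

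JAK and STAT proteins carry the signals of CSF2, CSF3 and IL24, while the CSF1 receptor is itself a kinase. Of 12 tested genes of this pathway, SOCS3, a feedback inhibitor that binds the G-CSF receptor, averaged 8.32 at 16Gy and 7.48 at 0Gy on day 6 (log2 fold change 0.83, adjusted p = 0.000188). MCL1, a survival protein, averaged 9.97 at 16Gy and 9.33 at 0Gy (0.64, adjusted p = 0.00633). These were the 2 genes of the list called at 16Gy on day 6, where 4.09% of all genes were called higher, and STAT3 was not called (0.024). The median log2 fold change of the 12 was 0.24, against -0.027 over all 11296 genes.

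Of 16 tested NF-kB, AP-1, C/EBP and ETS factors, 5 were called higher and 0 lower at 16Gy on day 6, and 7 were higher on day 4. Of all genes, 4.09% were called higher and 3.77% lower on day 6, and 3.1% higher on day 4. ATF3, a stress-induced factor of the AP-1 group, averaged 10.78 at 16Gy and 8.38 at 0Gy on day 6 (log2 fold change 2.41, SE 0.22, adjusted p = 1.56e-09). FOSB, another AP-1 subunit, averaged 8.78 at 16Gy and 7.12 at 0Gy (1.67, adjusted p = 6.35e-09). JUN, FOSL1 and ETS2, the other factors called on day 6, had differences of 0.87, 0.86 and 0.83. The NF-kB subunit NFKB1 was called on day 4 at 16Gy (0.61, adjusted p = 0.022) but differed by -0.075 on day 6, and RELB was called on day 4 at 16Gy (0.63, adjusted p = 0.0101). The subunits RELB, NFKB2 and RELA were 0.57, 0.48 and 0.41 higher at 16Gy on day 6. All 3 were under the fold threshold (adjusted p = 0.0125, 0.0047 and 0.0503 in limma). Of the C/EBP factors, CEBPD was called higher on day 4 at 8Gy (0.97, adjusted p = 0.033) and at 16Gy (1.18, adjusted p = 0.00219) but not on day 6 (0.091 at 16Gy), and CEBPB, a regulator of CSF3 in other cells, was not called.

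Among 11 tested proteins that act on cytokine mRNAs, ZC3H12A (Regnase-1), a nuclease that degrades such mRNAs, averaged 9.07 at 16Gy and 7.94 at 0Gy on day 6 (log2 fold change 1.13, SE 0.26, adjusted p = 0.00198). It was the 1 called in that list at either dose on days 4 and 6, where 1.49% to 4.09% of all genes were called higher. ZFP36, which binds AU-rich elements, averaged 9.06 at 16Gy and 8.75 at 0Gy on day 6, under the fold threshold. Of the 4 genes that process or traffic membrane-bound M-CSF, ADAM17 among them, 0 were called on any day. No gene of these lists was called against 0Gy on day 1 or day 35.

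**Figure D5:**
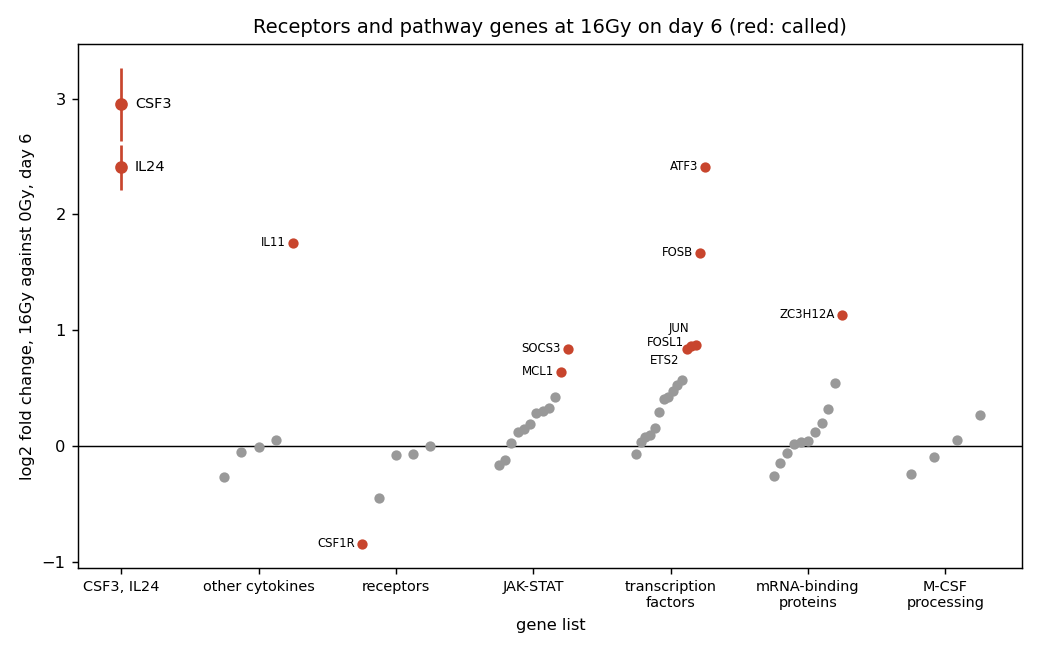
Log2 fold change at 16Gy against 0Gy on day 6 (vertical axis) for CSF3 and IL24 (bars SE) and for the tested genes of 6 lists (horizontal axis); red points were called and are named, grey points were not. CSF3 (2.95) and IL24 (2.41) lie at the top with ATF3 (2.41), and CSF1R (-0.85) is the lowest point called.

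The genes most like each member were ranked by Pearson's r of log2 signal over the 27 short-term samples, which share replicates and days, as a description. For CSF3 they were IL36RN (r = 0.988), an antagonist of IL-36 receptors, the cytokine IL6 (0.976), the adenosine receptor ADORA2A (0.972), and NFKBIZ (0.971), a nuclear co-factor of NF-kB. For IL24 they were PSG4 (0.980), a pregnancy-specific glycoprotein, the trypsin inhibitor SPINK1 (0.974), ATF3 (0.968) and SPRR2D (0.967), an epithelial envelope protein. CSF3 and IL24 correlated at 0.948, which placed IL24 at rank 21 for CSF3 and CSF3 at rank 17 for IL24. On day 35 at 16Gy, IL36RN was 1.08 higher than at 0Gy and called (adjusted p = 0.0299), whereas the other 7 of these 8 genes were not.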

How the data were processed

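RNA from U87-MG cells was hybridised to Illumina HumanHT-12 v4 arrays. The authors exported signals of 47300 probes with GenomeStudio, quantile normalized and took log2 separately for the 27 short-term and 12 day 35 samples, and applied ComBat to the short-term set, whose batches are not given in the sources used here. These deposited log2 values were used as they are, and the number of samples limits the precision. The 96 columns of the unnormalized table could not be assigned to single samples and were not used. Probes were named from the platform annotation: 30100 name 1 gene, 8 several and 17192 none. The brightest probe stood for a gene, and signals under 16 would have been raised to 16, below which no value lay.

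Genes were tested if 1 or more of the 12 groups had all of its samples above background. limma 3.58.1 in R 4.3.3 was run with a mean-variance trend, with a term for the replicate number on days 1, 4 and 6 (controls were sham irradiated in parallel) and none on day 35. The deviations of same-numbered samples from their group means correlated with mean r of -0.13 to 0.39 on days 1, 4 and 6 and 0.28 to 0.71 on day 35. The main fit thus had no replicate term on day 35, where r reached its highest values, and the fit with it is given beside it. No 2 samples were identical. The code was tested on simulated data. Genes named were all members and their probes, the 4 most alike genes of each, up to 4 called genes of each list by their day 6 change at 16Gy, receptors and IL-10 family cytokines, and chromosomal neighbours. NFKB1, NFKB2, RELA, RELB, ETS2, CEBPB, CEBPD, STAT3, ZFP36 and ADAM17 were named after their values were seen. The members and lists were chosen with earlier results of these data known. Alternatives were another floor, none, no filter, mean of probes, median centring, no trend, joint normalization, single-day fits, the replicate term, each sample left out, and the analysis of variance of the study's methods. Replicates may share cultures, so that p-values measure the spread between these samples.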

Additional observations from a re-analysis of the deposited data

Results flagged for a closer look

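The difference from 0Gy was larger on day 4 than on day 1 for both tested genes at both doses, by a direct contrast within the limma fit. The change was 1.86 at 8Gy and 2.23 at 16Gy for CSF3, and 1.33 at 8Gy and 1.61 at 16Gy for IL24, all on the log2 scale. The genes were chosen with the day 4 differences known, so these values are a description. No sample of the day 35 groups stood apart from its group for CSF3 or IL24 by Dixon's criterion at the 95% level, although without 8Gy replicate 1 the CSF3 difference at 8Gy was -0.35 in place of 0.12, and groups of 3 samples were not examined that way.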

How the results depend on the processing

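With the brightest or mean probe, the members called against 0Gy were 2 at each dose on days 4 and 6 and 0 at each dose on days 1 and 35. These counts were the same under the alternatives run and without any 1 sample, with 1 exception. The analysis of variance over 12 groups with Bonferroni-Holm adjustment called 1 member, CSF3, at 16Gy on day 35, among 21 of 20041 genes called. Its p-value covers all 12 groups together, so only its fold threshold concerned day 35. Read from other single probes, CSF3 was not called with ILMN_1706852 on day 4 (0.27 at both doses) or day 6 (0.44 and 0.45 at 8 and 16Gy), nor IL24 with ILMN_1725814 on day 4 (0.48 and 0.57), all from 0Gy means under background. The larger effect of 8Gy on day 4 than on day 1 was called for 2 members, but for 0 with no replicate block, 1 with the mean of all probes and 1 with no mean-variance trend, and for 0 to 2 when 1 sample was left out. Of all 11296 genes, 5 were called in that contrast with no replicate block. The member count was 0 without 8Gy replicate 2 of day 1, 0Gy replicate 3 of day 4 or 8Gy replicate 2 of day 4. In these 3 fits 8, 4 and 10 of 11296 genes were called. The member count was 1 without 0Gy replicate 1 or 3 or 8Gy replicate 1 of day 1, or 0Gy replicate 2 or 8Gy replicate 1 of day 4. The higher CSF3 signal at 0Gy on day 4 than on day 1 was called for 1 member, but for 0 with no replicate block and with the mean of all probes, and 0 to 1 over the samples left out. For 16Gy against 8Gy on day 6 the count was 0, and 1 when each day was fitted alone, where 97 of 11296 genes were called. The replicate block on day 35 changed no call of a member. The causes were not tested.

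Signs changed only in differences that were not called. The CSF3 probe ILMN_1706852 gave -0.033 at 8Gy on day 35. Over the samples left out, the lowest and highest log2 differences on day 1 were -0.20 and 0.19 (IL24, 8Gy against 0Gy), -0.14 and 0.23 (IL24, 16Gy against 0Gy), -0.16 and 0.44 (CSF3, 16Gy against 0Gy), -0.58 and 0.045 (CSF3, 16Gy against 8Gy), and -0.13 and 0.24 (IL24, 16Gy against 8Gy). They were -0.15 and 0.33 for CSF3 at 16Gy against 8Gy on day 4, and -0.35 and 0.44 (CSF3) and -0.0245 and 0.14 (IL24) at 8Gy against 0Gy on day 35. Between 0Gy cultures they were -0.18 and 0.18 (IL24, day 4 against day 1), -0.23 and 0.52 (CSF3, day 6 against day 4) and -0.023 and 0.29 (IL24, day 6 against day 4). IL24 at 0Gy and all CSF1 probes stood near background, which limits what a fold change can show there.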
